A study of Drosophila melanogaster with 12 samples.

Results

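Occupancy by Ultrabithorax (Ubx) was described at 10 genes for extracellular matrix proteins and the enzymes that remodel matrix, out of 13935 protein-coding genes in the gene table used. The genes were chosen by symbol: the proteases Mmp1, Mmp2 and Sb, the protease inhibitor Timp, the basement membrane genes Col4a1, vkg, trol and LanA, and the apical matrix genes dpy and pio. Each was taken with 10 kb on both sides, called its window here. All 10 symbols were found in the table. The genes were chosen with earlier results of these data known, so the shares below describe them and are no unbiased sample.

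Ubx is the Hox transcription factor that makes the haltere, the balancing organ of flies, differ from the wing. The samples were Ubx chromatin immunoprecipitation (ChIP) from haltere discs, input from haltere discs, Ubx ChIP from wing discs and input from wing discs, with 3 libraries each, 12 in all. Discs are the larval epithelia that form these appendages. All came from wild-type Canton S wandering last-stage (L3) larvae, fixed with para-formaldehyde, and the ChIP used a polyclonal antibody to the N-terminal part of Ubx. The peak lists of the 3 haltere ChIP libraries and the authors' consensus list were used. The wing and input libraries were not analysed here, so each value below describes haltere discs, with no test between groups. Whole discs were used, so a peak cannot be given to a cell type, and peak lists hold no expression values against which the tissue label could be checked.

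An epithelium rests on a basement membrane of collagen IV, laminin and perlecan, and on its other face carries an apical matrix built of zona pellucida domain proteins. When the discs evert and the appendages take shape in the pupa, both matrices are cut: matrix metalloproteinases act on the basal side and the serine protease Stubble acts on the apical side. Genetic work has tied Ubx to the control of matrix remodelling during haltere shaping.

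The lists held 2869, 2361 and 3859 peaks in replicates 1 to 3, and the read depth behind each is unknown. A longer list need not mean more binding. Fold enrichment is the authors' value for each peak, a linear ratio over the local background, and is given here with its percentile within the library's own list, where 100 is the highest fold of that list. A consensus region is a stretch where peaks of 2 or 3 libraries overlap; the deposited list has 2171 of them. The gene table gives extents without strand or exons. Ends of genes are therefore called lower and upper by their position number, and whether a region is exonic or intronic was not determined.

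A consensus region lay in the window of 7 of the 10 matrix genes: Mmp1, Mmp2, Sb, trol, LanA, dpy and pio. Over all protein-coding genes with the same window the share was 17.7%. A region covered by all 3 libraries lay in the windows of Sb, trol and LanA, 3 of 10 genes, against a share of 8.76% over all protein-coding genes. At least 1 peak was called in the windows of 8 of the 10 genes by replicate 1, and of 7 each by replicates 2 and 3; the shares over all protein-coding genes were 28.9%, 21.3% and 32.0%. Mmp2, Sb, trol, LanA, dpy and pio, 6 of 10 genes, had a peak in each library, against 11.7% of all genes, though not always at the same place.

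These genes are long, which by itself gives a window more room for peaks. Their median extent was 16.8 kb, against 2.16 kb for all protein-coding genes. Within length classes, neither of the 2 matrix genes under 10 kb (Timp and Col4a1) had a consensus region, where the share over all such genes was 15.1%, or 7.22% for a region in all 3 libraries. Of the 5 genes of 10 kb to under 50 kb, 4 had one, against 30.9%. All 3 genes of 50 kb or more had one, against 45.0%. For regions in all 3 libraries the counts were 2 of 5 in the middle class, against 16.1%, and 1 of 3 in the long class, against 28.8%. Per length, the joined windows (575.6 kb) held 2.26 consensus regions per 100 kb, against 1.59 per 100 kb over all protein-coding windows. For regions in all 3 libraries the density was 0.521 per 100 kb at the matrix genes, against 0.674 over all protein-coding windows.

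**Figure D1:**
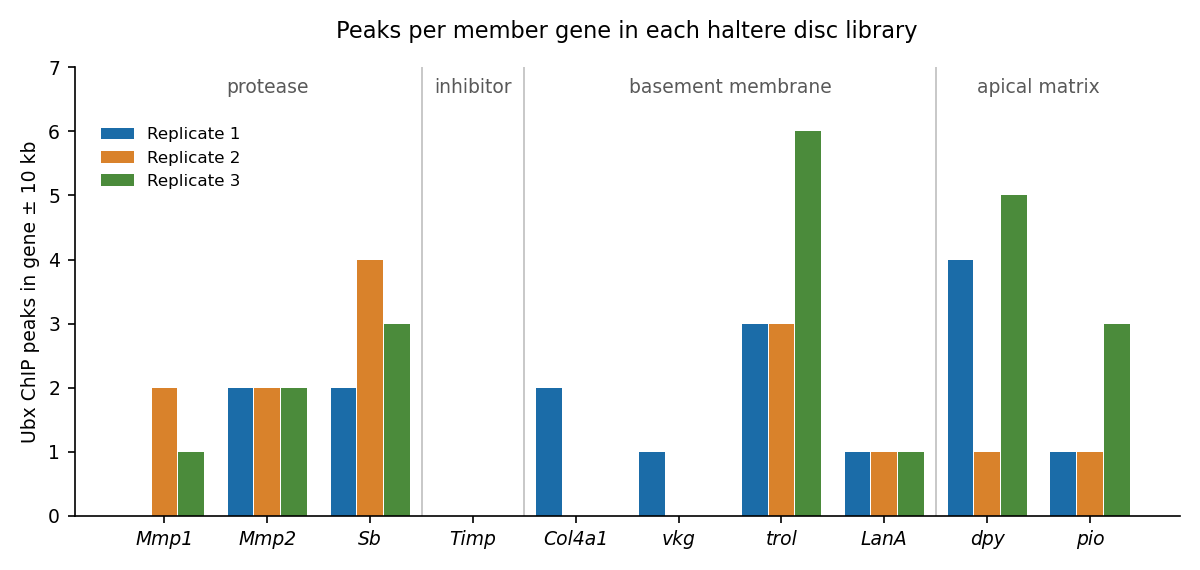
Number of Ubx ChIP peaks (vertical axis) in the window of each matrix gene (horizontal axis), with 1 bar per haltere disc library and genes grouped by role. trol has the most peaks, 3, 3 and 6 in replicates 1 to 3, Timp has none in any library, and Col4a1 and vkg have peaks in replicate 1 only.

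In all, 50 distinct peaks were called in the windows (15, 14 and 21 in replicates 1 to 3). They formed 34 separate sites, of which 22 were seen in 1 library, 9 in 2 libraries and 3 in all 3. Of the 22 single-library sites, 8 came from replicate 1, 4 from replicate 2 and 10 from replicate 3. The share of peaks met by no other library was set beside that of each whole list: 53.3% at the matrix genes and 51.3% in the list for replicate 1, 28.6% and 26.1% for replicate 2, and 47.6% and 46.6% for replicate 3. Peaks met by both other libraries numbered 3 in each library. In replicate 1 this was 20% of the matrix gene peaks, against 32.5% of the list. For replicate 2 the shares were 21.4% against 39.3%, and for replicate 3 they were 14.3% against 24.2%. The 3 peaks of each library belong to the same 3 regions, so these shares are not independent of each other.

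The median percentile of fold over the peaks at matrix genes was 28.7, 58.8 and 60.7 in replicates 1 to 3, with median folds of 3.91, 4.33 and 4.80, against list medians of 4.35, 4.05 and 4.40. Replicate 1 thus stood below its list median at these genes, and replicates 2 and 3 above theirs. Peaks below percentile 25 numbered 7 of 15 in replicate 1, 0 of 14 in replicate 2 and 5 of 21 in replicate 3, and peaks at or above percentile 90 numbered 2, 1 and 3. Most of the weak ones were single-library peaks: 6 of the 8 single-library peaks of replicate 1 and 5 of the 10 of replicate 3 lay below percentile 25. Within each library the peaks shared with another library ranked higher than the rest: the median percentiles were 67.6 against 20.5 for replicate 1, 67.2 against 34 for replicate 2, and 69.6 against 30.2 for replicate 3. The same medians over the whole lists are not given here, so this difference is not shown to be particular to matrix genes.

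**Figure D2:**
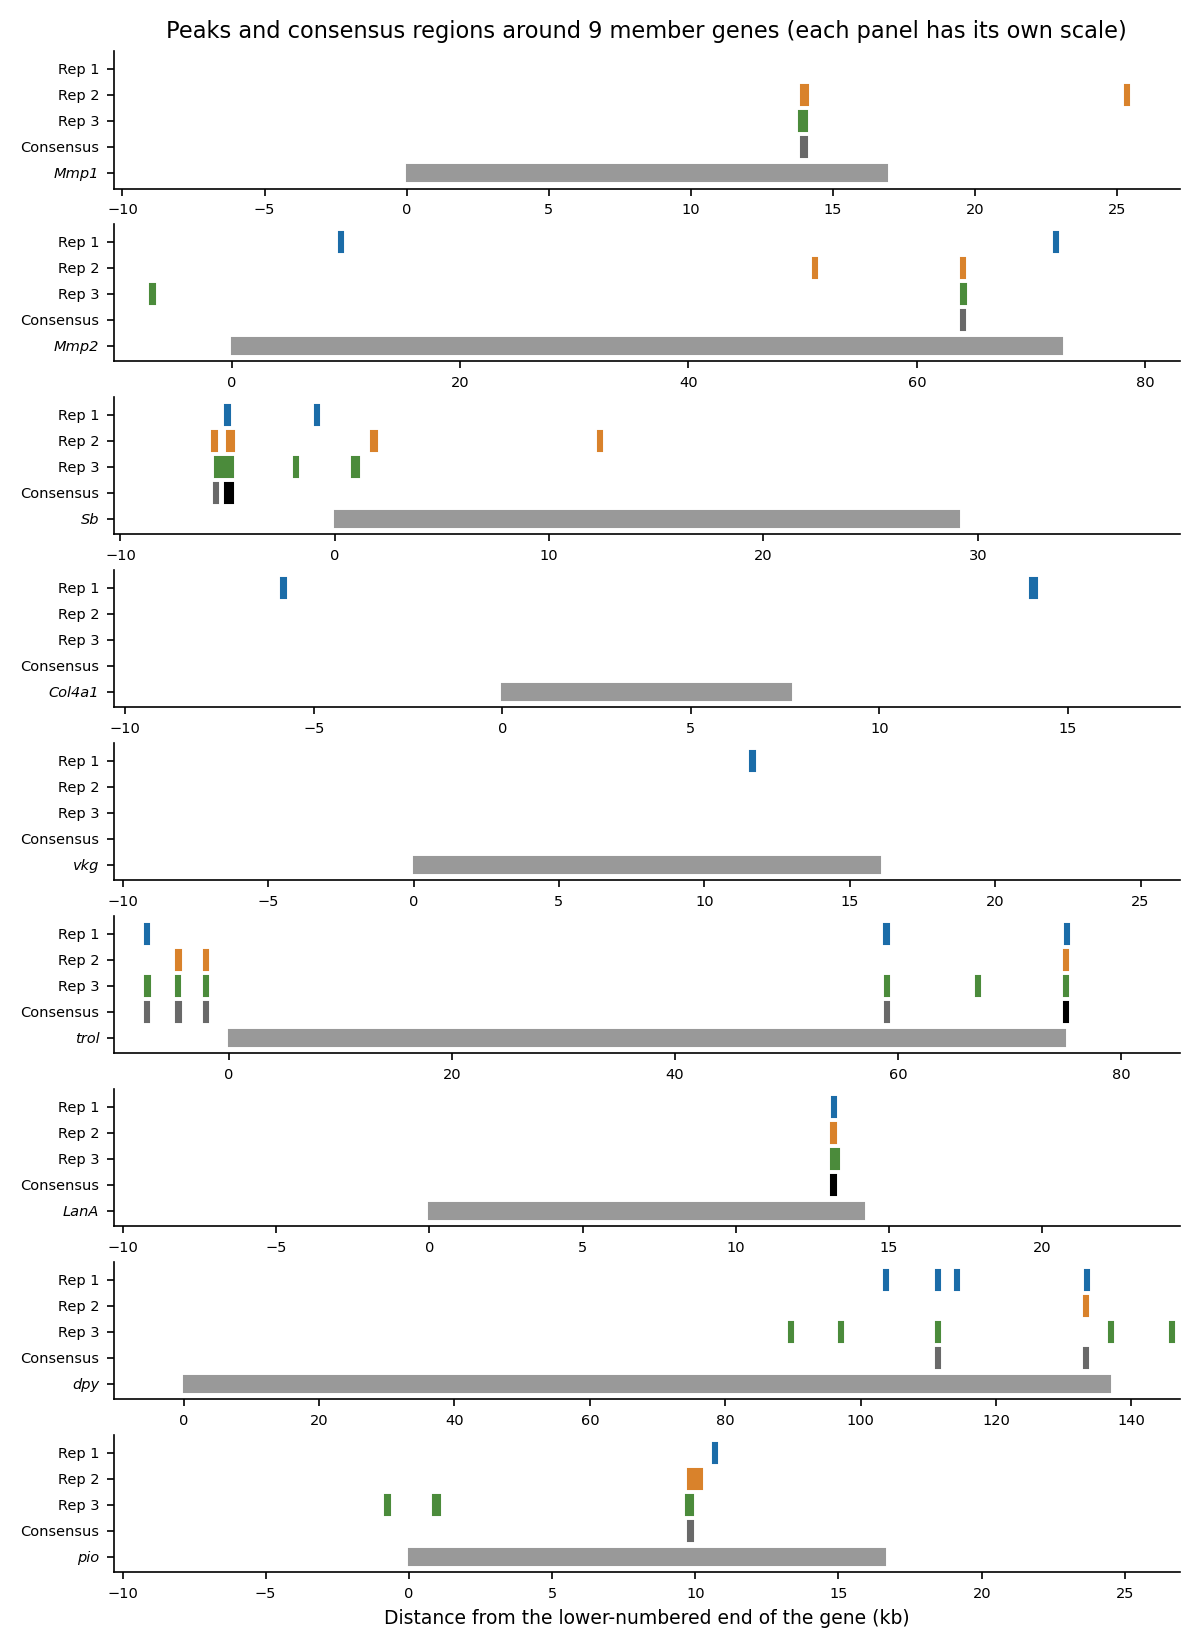
Position of peaks (blue, replicate 1; orange, replicate 2; green, replicate 3) and of consensus regions (black, all 3 libraries; grey, 2 libraries) along the 9 matrix genes with a peak, as distance in kb from the lower end of the gene (grey bar). Narrow peaks are drawn wider than they are so as to be visible; the black regions lie below the lower end of Sb, just past the upper end of trol and inside LanA.

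Among the proteases, Stubble (Sb, Dmel_CG4316; 3R, 16116161 to 16145284, build BDGP6) had the region of highest mean rank, and it was found in all 3 libraries. Sb encodes a membrane-bound serine protease needed for leg and wing eversion. The region runs from 16111035 to 16111419 on 3R, outside the gene, 4742 bp from its lower end. Its fold was 5.07 in replicate 1 (percentile 70.0), 6.54 in replicate 2 (percentile 90.1) and 7.82 in replicate 3 (percentile 91.6). The summits, at 16111204, 16111266 and 16111215, lay within 62 bp of each other. The midpoint of the region lay 4934 bp from Sb, the nearest protein-coding gene. The next gene on its other side, Akt, was not much farther. The replicate 3 peak here was 839 bp wide, a width reached by 1.3% of the peaks in that list.

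The second Sb region, 71 bp from 16110581 to 16110651, rests on the edge of that wide replicate 3 peak and on a replicate 2 peak with a fold of 3.75. The summits of the pair were 682 bp apart. Its midpoint lay nearest to Akt, a kinase gene of the insulin pathway, at 4946 bp. Sb also had 5 peaks seen in 1 library each, with folds of 3.27 in replicate 1, 3.64 and 3.63 in replicate 2, and 3.03 and 4.22 in replicate 3. The 5 peaks lay between 1836 bp below the lower end and 12453 bp inside the gene, and each was below its list median. In all, the Sb window had 2, 4 and 3 peaks in replicates 1 to 3 (3.0 ± 1.0, SD, n = 3).

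Mmp1 and Mmp2 encode the matrix metalloproteinases of the fly. The Mmp1 gene (Dmel_CG4859; 2R, 24671294 to 24688184) had 0, 2 and 1 peaks in replicates 1 to 3. Its region lay inside the gene from 24685177 to 24685369, 2815 bp from the upper end. The fold was 3.91 in replicate 2 (percentile 44.3) and 4.76 in replicate 3 (percentile 59.9), with summits 3 bp apart at 24685281 and 24685278. Replicate 1 had no peak anywhere in the Mmp1 window. The other replicate 2 peak had its summit 8447 bp past the upper end, inside the neighbouring gene Mid1.

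Mmp2 (Dmel_CG1794; 2R, 9611139 to 9683858) is longer, and had 2 peaks in each library. Replicates 2 and 3 met at 1 region, from 9675059 to 9675288, inside the gene and 8570 bp from its upper end. The fold there was 4.79 in replicate 2 and 5.24 in replicate 3, at percentiles 70.0 and 69.6, and the summits were 11 bp apart. Both replicate 1 peaks lay elsewhere in the gene, with folds of 3.68 and 3.71 at percentiles 19.7 and 21.4. The remaining replicate 2 peak was inside the gene with a fold of 3.61, and the remaining replicate 3 peak, with a fold of 4.07, was inside CG1902, 6972 bp below Mmp2. Equal peak numbers in the 3 libraries therefore came from different sites.

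Timp (Dmel_CG6281; 3R, 10203875 to 10213007), the tissue inhibitor of metalloproteinases, had no peak in any of the 3 libraries, alone among the 10 genes. Among all protein-coding genes 52.5% had none. Timp lies within the extent of the Synapsin gene Syn. With unknown depth this says only that no site within 10 kb of Timp passed the authors' threshold.

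The collagen IV genes Col4a1 (Dmel_CG4145; 2L, 5029609 to 5037279) and vkg (Dmel_CG16858; 2L, 5012144 to 5028191) are neighbours with 1417 bp between them, and 18.6 kb of their windows is shared. Neither had a consensus region. All peaks there came from replicate 1. One lay inside vkg with its summit at 5023840, with a fold of 3.13 at percentile 4.9, and counts for both genes because of the shared window. The other had its summit 6352 bp past the upper end of Col4a1, inside 4 overlapping genes that include CG31650, with a fold of 3.91 at percentile 28.7.

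The perlecan gene trol (Dmel_CG33950; X, 2470460 to 2545427), whose product links the parts of the basement membrane, had the most regions of the 10. Its window held 5 consensus regions, a number reached by 1.81% of protein-coding genes, and 3, 3 and 6 peaks in replicates 1 to 3 (4.0 ± 1.7, SD, n = 3). Only 1 of the 5 regions lay inside trol. With Sb and dpy, at 2 regions each, 3 of the 10 genes had more than 1, against 7.05% of all protein-coding genes. Neither this share nor that of 1.81% was split by length, so they are not like for like. The windows of trol and dpy span 94968 and 156839 bp, and the median extent of protein-coding genes is 2.16 kb. Both Sb regions overlap the same replicate 3 peak.

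The trol region in all 3 libraries lay 12 bp past the upper end of the gene, from 2545439 to 2545675. Its folds were 4.96, 5.40 and 7.76 in replicates 1 to 3, at percentiles 67.6, 79.9 and 91.1. The summits spanned 23 bp. The region inside the gene, from 2529397 to 2529540, came from replicates 1 and 3, with folds of 4.46 and 5.39. The other 3 regions lay below the lower end, at distances of 1978, 4429 and 7195 bp, all inside the gene boi, which encodes a Hedgehog co-receptor.

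The libraries ranked the farthest of those boi regions differently. It lay from 2462941 to 2463265 and had a fold of 8.18 in replicate 1 (percentile 95.7) and 3.87 in replicate 3 (percentile 32.6), with summits 31 bp apart and no replicate 2 peak. The middle one had folds of 4.39 in replicate 2 (percentile 60.4) and 5.0 in replicate 3 (percentile 65.0). The nearest had folds of 5.17 in replicate 2 (percentile 76.7) and 5.39 in replicate 3 (percentile 71.9). Replicate 1 had no peak at either. With regions given only to the nearest protein-coding gene, trol kept 2. One more peak inside trol was seen in replicate 3 alone, with a fold of 3.51.

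LanA (Dmel_CG10236; 3L, 6203831 to 6218022), the gene of a laminin alpha chain, had exactly 1 peak in each library and all 3 overlapped. Their common region, from 6216922 to 6217114, lay inside the gene, 908 bp from its upper end. This is the only one of the 3 regions seen in all libraries that lay inside a matrix gene. The folds were 3.27, 5.52 and 5.15 in replicates 1 to 3. Replicate 1 placed it at percentile 7.8, whereas replicates 2 and 3 placed it at percentiles 81.3 and 67.2, the widest gap in rank, 73.5 points, of any region described here. The replicate 1 peak was also narrow, at 125 bp, and its summit lay at one side, so that the summits spanned 95 bp. With only peaks of −log10 q-value of at least 5, or only the strongest 50% of each list, the replicate 1 peak (−log10 q-value 3.64) dropped out and LanA kept its region in 2 libraries, not 3.

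The apical matrix gene dumpy (dpy, Dmel_CG33196; 2L, 4477462 to 4614300) encodes a very large zona pellucida domain protein that anchors epithelium to cuticle. Its window had 4, 1 and 5 peaks in replicates 1 to 3 (3.33 ± 2.08, SD, n = 3). No peak lay in the lower part of the gene: the lowest summit was 89717 bp from the lower end of an extent of 136839 bp.

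Both dpy regions were inside the gene, each in 2 libraries and each including replicate 1. The first, from 4588788 to 4588927, had a fold of 4.79 in replicate 1 (percentile 63.5) and 8.52 in replicate 3 (percentile 93.8), with summits 4 bp apart at 4588826 and 4588822. The second contained the highest rank of any peak at these genes: a replicate 1 fold of 11.5, at percentile 99.3 of that list. Replicate 2 had a fold of 4.55 there (percentile 64.3) and replicate 3 had no peak. The peaks shared only 28 bp, from 4610767 to 4610794, yet both summits fell in that stretch, at 4610776 and 4610780. Each summit lay near the edge of its own peak, and the peaks ran to opposite sides. They spanned 4610767 to 4610929 in replicate 1 and 4610622 to 4610794 in replicate 2. The other 6 peaks were seen in 1 library each: 2 of replicate 1, with folds of 4.18 and 3.57, and 4 of replicate 3, with folds between 3.28 and 4.87. Of these, 2 replicate 3 peaks lay past the upper end, with summits at 204 and 9185 bp.

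At pio (Dmel_CG3541; 2R, 24581245 to 24597862), which encodes another zona pellucida domain protein of the apical matrix, the overlap was wider but the summits lay farther apart. The region from 24590985 to 24591158 lay inside the gene with folds of 4.24 in replicate 2 (percentile 55.9) and 4.65 in replicate 3 (percentile 57.2). Its summits were 368 bp apart, and the replicate 2 peak was 500 bp wide, a width reached by 6.1% of its list. Replicate 1 had a peak 367 bp beyond the replicate 2 peak, with a fold of 3.72. All 3 libraries therefore had a peak in this part of pio without a base common to all of them. The strongest replicate 3 peak at pio, with a fold of 5.63 at percentile 75.6, lay inside the gene with its summit 997 bp from the lower end, and no other library had a peak there. A further replicate 3 peak, with a fold of 3.45, lay 713 bp below the gene.

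**Figure D3:**
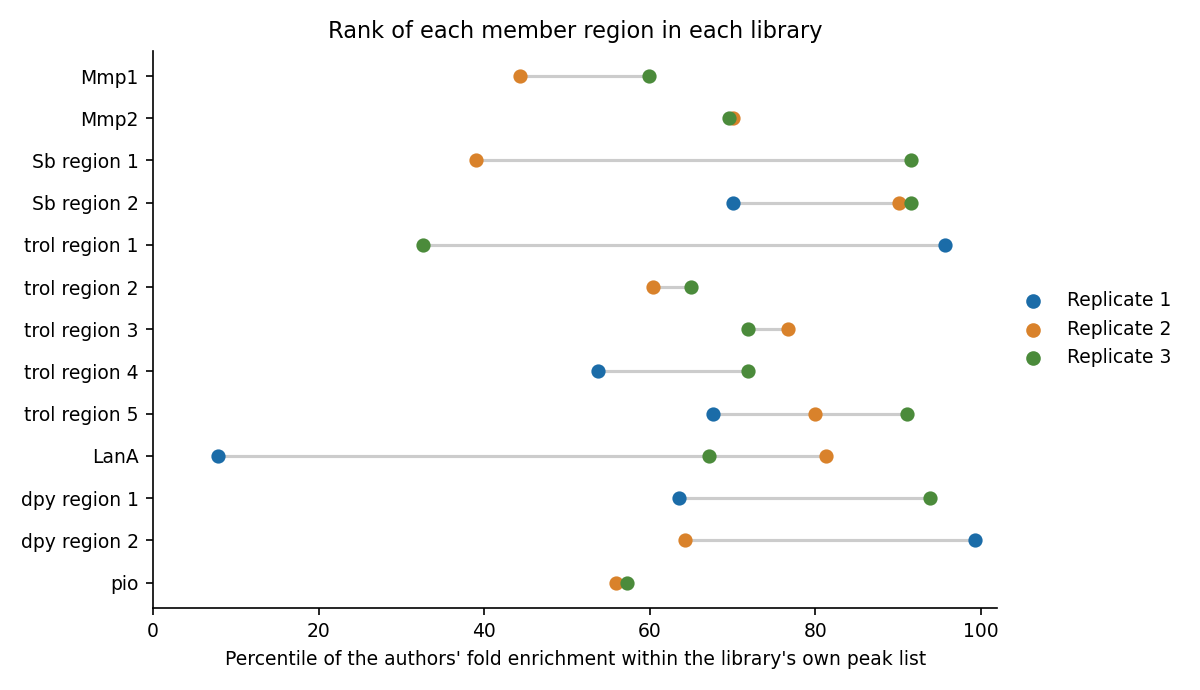
Percentile of fold enrichment within each library's own peak list (horizontal axis) for the 13 consensus regions at matrix genes (rows, numbered from the lower position within a gene); each point is 1 library and the grey line joins the lowest and the highest. Mmp2 and pio have nearly equal ranks in their 2 libraries, and LanA ranges from percentile 7.8 to percentile 81.3. Sb region 1 of the figure is the 71 bp region that the text calls the second Sb region. Its replicate 3 point repeats that of Sb region 2, because 1 wide peak covers both.

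Across the 13 regions, 7 (53.8%) lay inside a matrix gene and 6 outside it. Of the 50 peak summits, 29 (58%) lay inside, and the genes themselves make up 68.5% of the window length. All 3 libraries covered 3 regions (23.1%), against 42.7% of the whole consensus list. Of the 10 regions in 2 libraries, 6 paired replicate 2 with replicate 3, 3 paired replicate 1 with replicate 3, and 1 paired replicate 1 with replicate 2. Peaks of replicate 3 were at 12 regions, of replicate 2 at 10 and of replicate 1 at 7. Ranks were within 10 points between libraries at 4 regions and more than 50 points apart at 3. These 3 were the LanA region, the farthest trol region and the second Sb region. At the second Sb region the replicate 3 rank was that of the wide peak whose summit lay in the first Sb region. That gap therefore compares different places, not the ranks of 1 site.

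Summit positions play no part in defining the regions, but peaks must overlap, so peak width limits how far apart summits can lie. Median peak widths at matrix genes were 164, 188 and 236 bp in replicates 1 to 3. Those of the whole lists were 177, 212 and 227 bp. Whether width accounts for the summit distances was not tested. The distance between the outermost summits was 100 bp or less at 11 of 13 regions, against 67.8% of all consensus regions. Its median was 23 bp, against 58 bp over all regions. The distance tends to be smaller with fewer libraries. It was 100 bp or less at 8 of 10 matrix gene regions in 2 libraries, against 72.4% of such regions over the list. For regions in 3 libraries this was 3 of 3, against 61.7%. In 2-library regions the median was 18 bp at matrix genes (10 regions) and 46 bp over the list, and in 3-library regions it was 62 bp (3 regions) and 71 bp. The exceptions were the pio region and the second Sb region; a distance as large as that of pio was found in 4.24% of all regions, and one as large as that of Sb in 0.461%.

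**Figure D4:**
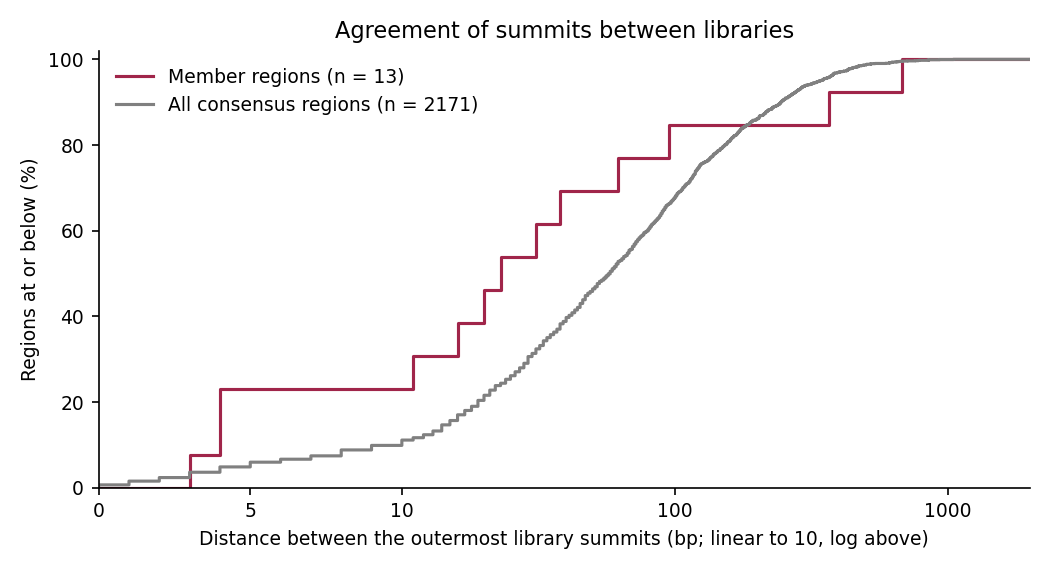
Cumulative share of regions (vertical axis, percent) by the distance in bp between the outermost library summits (horizontal axis, linear to 10 and logarithmic above), for the 13 regions at matrix genes (red, member regions) and all 2171 consensus regions (grey). The red line passes 50% at 23 bp and the grey line at 58 bp; the last 2 red steps are pio and the second Sb region.

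The regions nearest to the limit of 10 kb were the trol region at 7195 bp on the inner side and a region in 2 libraries 10303 bp past the upper end of Sb, inside CG6006, on the outer side. Windows of 20 kb added that region and 3 more inside boi, 2 of them in all 3 libraries, which brought the number at trol to 8. The gene extents alone held 7 regions, in 6 of the 10 genes; Sb had none. Over all protein-coding genes 4.85% had a region in the extent. A region in all 3 libraries lay in the extent of LanA, 1 of 10 genes, against 2.10%. These shares for gene extents were not split by length. The matrix genes are longer, with a median extent of 16.8 kb against 2.16 kb, so the shares are not like for like.

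The count of genes depended on which libraries were used. Taking only stretches covered by both remaining libraries, 6 of 10 genes had a region without replicate 1, 4 without replicate 2 and 4 without replicate 3. The shares over all protein-coding genes under the same rule were 14.3%, 12.3% and 9.43%, each below the 17.7% with all libraries. Sb, trol and LanA kept a region in each case. Mmp1, Mmp2 and pio lost theirs without replicate 2 or without replicate 3, and dpy lost both without replicate 1.

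A wider list of matrix genes included matrix receptors and cell surface proteoglycans. Like the first 10 genes, this list was chosen with earlier results of these data known. It is thus no independent check of the first 10 genes. Its 39 genes were counted the same way. Of these, 18 (46.2%) had a consensus region, against 17.7% of all protein-coding genes, and 8 (20.5%) a region in all 3 libraries, against 8.76%; 10 had no peak at all. By length, 4 of 15 genes under 10 kb, 11 of 18 of 10 kb to under 50 kb and 3 of 6 of 50 kb or more had a region, beside the shares of 15.1%, 30.9% and 45.0% over all genes of these classes. For a region in all 3 libraries the counts were 2 of 15 (13.3%), 4 of 18 (22.2%) and 2 of 6 (33.3%), beside 7.22%, 16.1% and 28.8%, a smaller gap than over all genes together. By role, a region was found at 2 of 7 other basement membrane genes, none of them in all 3 libraries, and at 0 of 3 genes of collagen assembly. It was found at 5 of 6 matrix receptor genes, 2 of 3 cell surface proteoglycan genes, 4 of 9 other apical matrix genes, 5 of 10 other proteases and not at the inhibitor gene Reck.

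The 8 genes with a region in all 3 libraries included 3 integrin genes. The alpha subunit gene mew had 6 regions, of which 3 were shared by every library, and its lead region lay inside the gene, with folds of 6.19, 5.34 and 8.27 in replicates 1 to 3. The alpha subunit gene if had a lead region inside the gene, with folds of 3.96, 7.21 and 7.95. At the beta subunit gene mys the lead region had folds of 4.79, 8.59 and 8.60 but lay 2777 bp from mys, inside the gene fs(1)h. The integrins are the cell surface receptors for laminin and other matrix proteins.

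The glypican genes dally and dlp, for heparan sulfate proteoglycans that hold secreted signals at the cell surface, had 9 and 5 regions, of which 2 and 3 were in all 3 libraries. Only 2 of the 9 dally regions and 3 of the 5 dlp regions lay in the gene extent. The lead dally region lay 1819 bp outside the gene, with folds of 5.07, 3.97 and 5.31. The lead dlp region lay inside the gene, with folds of 5.60, 5.06 and 7.76 in replicates 1 to 3. The last 3 genes were the zona pellucida domain genes qsm and mey and the ADAM protease gene kuz, which acts in Notch signalling. The folds were 5.78, 4.75 and 7.52 at qsm and 7.62, 4.35 and 4.94 at kuz. At mey they were lower, at 4.71, 2.75 and 3.87, with the replicate 2 peak at percentile 3.2 of its list.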

How the data were processed

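Ubx was measured by ChIP followed by sequencing. Trimmomatic 0.36, BWA, MACS2 and the build BDGP6 (Release 6) are named per the submitters' processing notes, and MACS2 peak calling per the labels' series design text. The MACS2 version, options and control, and how duplicate or ambiguous reads were treated, are not given in the sources used here. Each library had its own deposited peak list. The authors' lists give a fold enrichment (a linear ratio), −log10 p and q values, a score and a summit for each peak. The deposited score is 10 times the −log10 q-value, without decimals. The lowest deposited −log10 q-value was 2.0, 2.04 and 2.01 in replicates 1 to 3. The deposited consensus list gives positions only; all 2171 of its regions equal the stretches covered by at least 2 libraries. The files hold no read counts, so depth and its precision are unknown. A deeper library can pass the same threshold at more sites, and repeated sequence can gain or lose peaks with mapping.

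Samples were grouped by title. Gene extents came from a RefSeq table of Release 6. Overlap meant at least 1 shared bp. Percentiles average ties. Computations used Python 3.11.15, numpy 2.4.6 and pandas 2.3.3, and the overlap code was tested on simulated data. Only 1 group had peak lists, so no test was made, and every share over genes or regions is a description. All 10 members are named; of the wider list, genes with a region in all 3 libraries are. Members and lists were chosen with earlier results of these data known. Alternatives changed the window, overlap, peak threshold, gene assignment and libraries. No genome sequence was used.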

Additional observations from a re-analysis of the deposited data

How the results depend on the processing

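The number of matrix genes with a consensus region was 7 as reported and 6 or 7 under the other windows, overlap, thresholds and gene assignment; leaving out 1 library gave 4 to 6. Genes with a region in all libraries numbered 3 as reported, 1 with gene extents only, and 4 to 6 without 1 library. The number was 2 with the stricter −log10 q-value, 2 with the strongest 50% of each list (LanA lost in both) and 2 with windows of 2 kb (Sb lost). Without 1 library, only the other 2 had to share a region. Consensus regions numbered 13 as reported, 7 with gene extents only, and 4 to 9 without 1 library. Regions in all libraries numbered 3 as reported, 1 with gene extents only, 5 with windows of 20 kb, and 4 to 9 without 1 library. Smaller or larger windows, stricter peak thresholds and fewer lists tend to move the counts in these directions by construction. The mean number of distinct peaks per gene and library was 1.67 ± 0.38 (SD, n = 3), and 1.0 with gene extents only. The mean of the library medians of fold percentile was 49.4 ± 17.9 (SD, n = 3), 49.5 by −log10 q-value, and 68.1 for peaks at a consensus region only. Requiring summits within 100 bp, an alternative chosen after seeing the data, left 11 regions in 6 genes, without pio. Of 84 counts for the 7 genes with a region, 58 stayed within 1.5 times. No paired analysis was possible because peak lists of a single group were used. The motif counts were not run, since no genome sequence was used. With unknown depth, a site missed in 1 library cannot be told from a site not bound there.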
